A study of Rattus norvegicus with 56 samples.

Results

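The genes described here are 93 cell cycle and DNA replication genes among the 10411 genes that the rat expression array measured through a single symbol. They were chosen by name alone: symbols that begin as those of the minichromosome maintenance (Mcm), origin recognition (Orc), replication factor C (Rfc), DNA polymerase (Pola, Pold, Pole), ribonucleotide reductase (Rrm), cyclin A, B, D and E, Cdk, Cdc, Cks, Cenp, Aurk, Bub and E2f genes, together with Top2a, Pcna, Mki67 and Plk1. No cyclin A gene was measured through a single symbol. The 93 genes are covered by 125 probe sets, and each was followed through the probe set with the highest mean over the 24 individual rats. By role, 10 genes load or recognise replication origins, 14 act at the replication fork or supply nucleotides, 12 act in G1 and at the entry to S phase, and 27 act in mitosis. The other 30 match the name rule and were placed in none of these roles. Among them are Cdc42 with its effectors, Cdc34, and the transcriptional kinases Cdk7, Cdk8, Cdk9 and Cdk19. Mcm3ap and Aurkaip1, which are not themselves helicase subunits or Aurora kinases, belong here too. These other name matches were set by exclusion and may include genes that act in the cell cycle.

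The study measured mammary glands from females of the inbred Wistar Furth strain on 56 arrays. In 12 rats the labels give RXR treatment, where RXR commonly stands for the retinoid X receptor, a nuclear receptor for retinoids, and the other 12 rats were controls. Not given in the sources used here are the compound, its dose and duration and the age of the rats. Of the treated rats 6 were outside diestrus (3 in estrus, 1 in proestrus and 2 labelled proestrus or estrus) and 6 were in diestrus, the luteal phase of the cycle, while of the control rats 3 were outside diestrus (2 in estrus and 1 labelled proestrus or estrus) and 9 were in diestrus. Labelled targets of the same rats were also mixed into 6 treated and 6 control pools of 2, into 4 treated and 4 control pools of 3, and into a pool of all 12 treated and a pool of all 12 control rats, each hybridised 4 times. The targets of rat 3 of either group were hybridised 2 more times. The pools hold rats already measured singly, so they repeat the comparison without adding animals.

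A dividing cell first licenses its replication origins by loading the Mcm helicase onto sites marked by the origin recognition complex. Cyclin D with Cdk4 or Cdk6 and then cyclin E release E2F transcription factors, which switch on genes of DNA synthesis. The fork then needs the Pcna clamp, its Rfc loader and the polymerases, and cyclin B with Cdk1 drives mitosis. In the adult mammary gland the dividing cells are mainly those of the ductal and alveolar epithelium, and their division follows the ovarian cycle.

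The values are 1 log2 number per probe set and array as deposited, and array medians lay between 7.40 and 7.48 log2, so that 1 unit stands for a doubling of signal. Precision is limited by the number of arrays, and each rat is a separate animal by its label. The epithelial marker Epcam lay between 11.2 and 12.0 log2 in all 24 rats and the luminal keratin Krt8 between 10.3 and 11.5. Of the lymphocyte and lymph node genes, the T cell gene Cd3e stayed between 4.43 and 4.60 and the B cell gene Cd79b between 5.64 and 5.88. Others on the same list were higher or varied strongly between rats: Glycam1 ran from 5.89 to 12.76 log2, Cxcl13 from 6.59 to 9.73 and Cd74 from 10.61 to 11.65. Repeat arrays of the same rat or the same pool of 12 differed mainly along a single component, which held 57.3% of their variance, and each array's place on it is called its technical score. That score ran from -10.0 to 8.19 in treated rats and from -15.1 to 12.5 in control rats.

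Genes of DNA replication and mitosis differed strongly between rats of the same group. The SD between rats within a group was above the limit for the top 10% of all probe sets for 28 of the 93 genes, or 30.1% of them. That held for 6 of 10 licensing genes, 9 of 14 fork genes (64.3%), 10 of 27 mitotic genes (37.0%), 3 of 12 G1 and S genes and for 0 of the 30 other name matches. The median SD between rats was 0.42 log2 for licensing genes and 0.30 for fork genes, against 0.12 for all 15866 probe sets. Repeat arrays of these genes were much closer, with a median SD of 0.11 log2 for licensing genes and 0.08 for fork genes, against 0.10 for all probe sets. Repeat arrays hybridised the same labelled targets again. Their SD thus leaves out dissection, RNA extraction and labelling, which were separate for each rat.

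The licensing gene Mcm6, a subunit of the replicative helicase, varied most, with an SD of 0.98 log2 between rats and 0.18 between repeat arrays. It ran from 5.72 through a median of 6.96 to 8.66 log2 in treated rats, a range of 7.67-fold, and from 5.65 through 7.25 to 8.35 log2 in control rats, a range of 6.50-fold. Both groups thus spread over nearly the same levels. Mcm2 had an SD of 0.67 log2, Mcm3 of 0.64, Mcm4 of 0.63 and Mcm7 of 0.47. The origin recognition genes Orc2, Orc4 and Orc5, in contrast, stayed below that limit, with SDs of 0.11, 0.16 and 0.08 log2.

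At the fork the Pcna clamp had an SD of 0.59 log2 between rats and 0.11 between repeat arrays. Its level was 9.06, 9.66 and 10.9 log2 at the lowest, median and highest treated rat, against 9.23, 9.97 and 10.7 log2 in control rats. The clamp loader subunits Rfc3 and Rfc4 had SDs of 0.41 and 0.40 log2. Rfc1, the large subunit of the same loader, had an SD of 0.07, no more than its 0.08 between repeat arrays, and Pole4, an accessory subunit of polymerase epsilon, had 0.08 between rats and 0.09 between repeat arrays. Other probe sets of Rfc1 had larger SEs of the treatment difference in single rats, 0.07 and 0.05 log2, against 0.03 for this one.

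Among the mitotic genes Cks2, a small protein that binds Cdk1, spread over 8.69-fold in treated rats, with 5.68, 6.47 and 8.80 log2 at the lowest, median and highest rat. In control rats it had 5.62, 7.0 and 8.45 log2, a range of 7.11-fold. Cdk1 itself, the kinase that starts mitosis, had 6.73, 7.19 and 9.01 log2 in treated rats, against 6.81, 7.69 and 8.28 log2 in control rats. Mki67, which encodes the Ki-67 protein of cycling cells, had 5.88, 6.31 and 7.95 log2 in treated rats, against 5.41, 6.67 and 7.60 log2 in control rats. Top2a, the topoisomerase that separates replicated chromosomes, had 7.12, 7.42 and 8.59 log2 in treated rats, against 7.09, 7.77 and 8.59 log2 in control rats. Plk1, a kinase of mitotic entry, spread less, with 8.36, 8.60 and 9.15 log2 in treated rats, against 8.46, 8.67 and 8.88 log2 in control rats. The groups overlapped for each of these 5 genes, although for Cdk1 3 treated rats lay above the highest control rat and 3 below the lowest, and for the first 4 treated rat 9 stood highest or level with the highest.

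Of the D cyclins, which start the cycle in G1, Ccnd1 and Ccnd2 were variable and Ccnd3 was not. Ccnd1 had 9.14, 10.5 and 11.3 log2 at the lowest, median and highest treated rat, against 9.08, 10.3 and 11.1 log2 in control rats. Ccnd2 had 7.71, 9.62 and 9.90 log2 in treated rats, against 7.38, 9.44 and 9.89 log2 in control rats. Its spread came from few animals: treated rat 14 at 7.71, control rat 14 at 7.38 and control rat 6 at 7.96 log2 lay apart from the remaining rats, which all reached at least 8.63 log2.

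**Figure D1:**
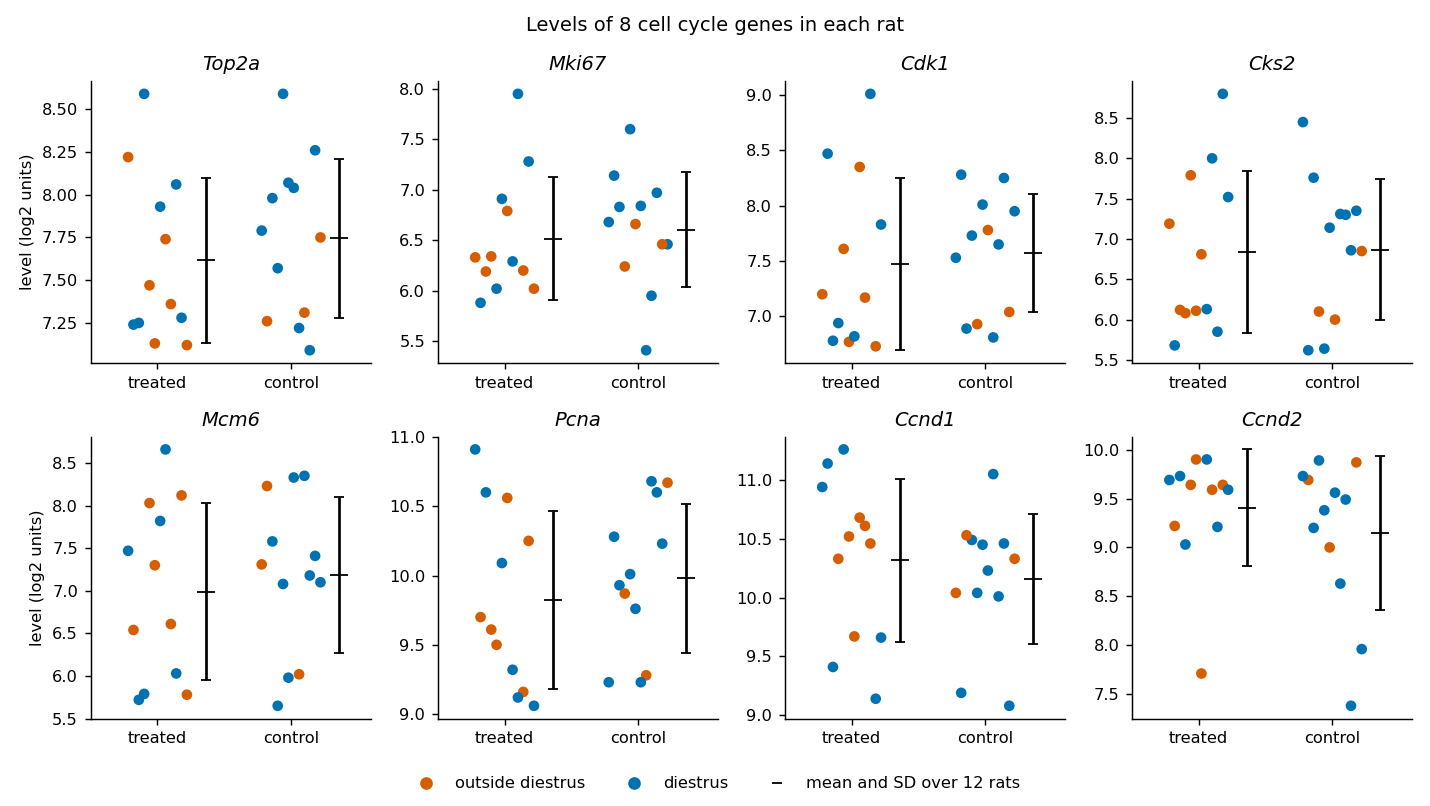
Level in log2 units of Top2a, Mki67, Cdk1, Cks2, Mcm6, Pcna, Ccnd1 and Ccnd2 in each of 12 treated and 12 control rats. Points are rats, coloured by whether the rat was outside diestrus or in diestrus, and the bar gives the mean and SD of each group. Treated and control rats overlap for each gene, from 5.72 to 8.66 against 5.65 to 8.35 log2 for Mcm6, while for Cdk1 3 treated rats lie above the highest and 3 below the lowest control rat.

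**Figure D2:**
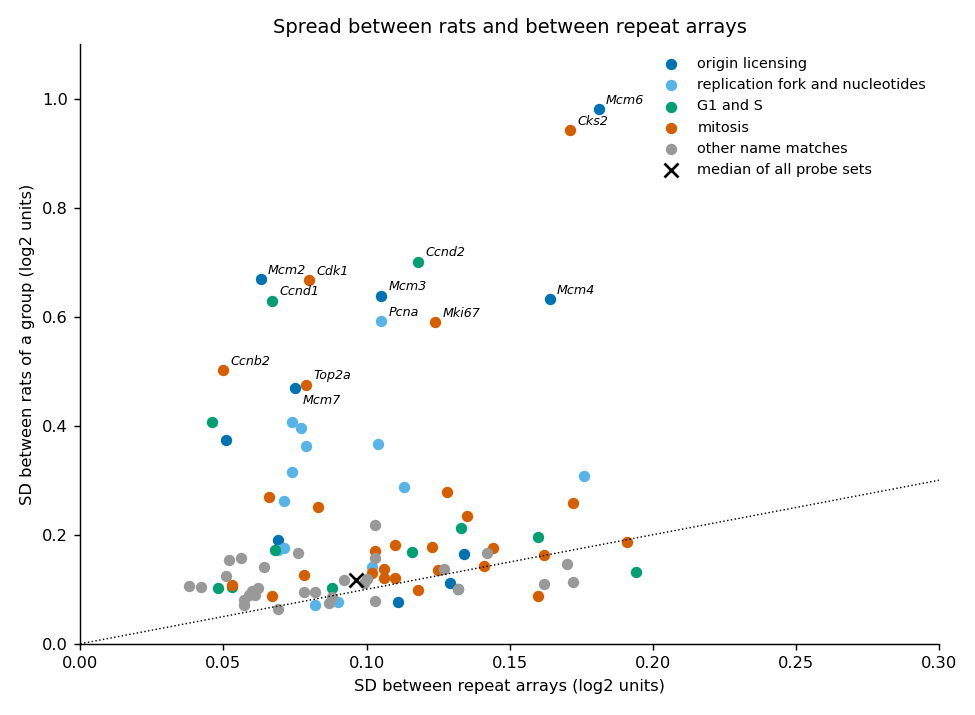
SD between rats within a treatment group against SD between repeat arrays for the 93 genes, both in log2 units and coloured by role; the cross marks the median of all probe sets and the dotted line equal spread. Mcm6 (0.98 log2), Cks2 (0.94) and Ccnd2 (0.70) lie highest, and the other name matches lie low, near the median of all probe sets.

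The replication and mitotic genes were high and low in the same rats. After the mean of each group was subtracted, 42 of the other 92 genes correlated positively with Top2a over the 24 rats and none negatively (permutation of rats within groups, 100000 resamples, two-sided, adjusted over 15864 probe sets). Over all probe sets 9.29% were called positive and 6.98% negative. Pearson's r was above 0.8 for 24 of the 92 genes, or 26.1%, against 1.01% of all probe sets. The median r was 0.80 for licensing, 0.73 for fork, 0.72 for mitotic and 0.51 for G1 and S genes, but 0.01 for the other name matches and -0.04 for all probe sets. The arrays of a rat share its RNA and its normalization, so these values include whatever is common to an array. The technical score had r = -0.04 and Spearman's rho = 0.07 with Top2a over the same 24 rats (permutation p = 0.848 and 0.767). Within treated rats alone that r was 0.49 and within control rats alone -0.55, so the sign differed between the groups.

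The 8 genes most like Top2a were Cks2, Cdk1, Ccnb2, Mki67, Aurkb, E2f8, Cks1b and Aurka. Cks2 reached r = 0.97 and rho = 0.95, with r = 0.95 when the 2 rats farthest from the median of Top2a were left out. Cdk1 had r = 0.94 and rho = 0.90 (0.94 without those 2 rats), and its partner cyclin B2, Ccnb2, had 0.94 and 0.93 (0.92 without them). For each of the 8 genes the permutation p for r was 1e-05, the smallest that the resamples can give, with an adjusted p of 0.000711 over all probe sets. E2f8, an atypical E2F that represses its targets, was the best placed of the G1 and S genes at r = 0.91 and rho = 0.91.

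Beyond these 8 genes the replication genes followed closely. Pcna had r = 0.87 (rho = 0.86), the ribonucleotide reductase subunit Rrm1 0.87 (rho = 0.86), Mcm4 0.87 (rho = 0.87) and Mcm6 0.82 (rho = 0.81). Within treated rats alone r was 0.95 for Pcna, 0.91 for Rrm1, 0.96 for Mcm4 and 0.87 for Mcm6, and within control rats alone it was 0.78, 0.82, 0.76 and 0.78. For Mcm6 it was 0.75 in rats outside diestrus and 0.93 in rats in diestrus. The relation of these 4 genes to Top2a was thus positive in each treatment group taken singly.

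Some genes with replication or cyclin names did not move with Top2a. Ccnd2, among the most variable genes, had r = 0.04 and rho = 0.10 (adjusted p = 0.939 and 0.828). The small polymerase subunits Pold4 (r = -0.41, rho = -0.41) and Pole4 (r = -0.11, rho = -0.15), the origin recognition genes Orc2 (0.26, 0.29), Orc4 (-0.34, -0.33) and Orc5 (-0.04, -0.04) and Aurkc (-0.42, -0.47), an Aurora kinase known from germ cells, were not called either. Their adjusted p for r lay between 0.165 for Aurkc and 0.936 for Orc5. Of the other name matches 2 were called, the Cdc42 effector Cdc42ep5 (r = 0.71, rho = 0.68) and the splicing factor Cdc5l (r = 0.68, rho = 0.69).

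A list of further proliferation genes whose names the rule does not cover behaved in the same way. Of 70 listed genes 42 were measured, of which 40 were called positive with Top2a and none negative, with a median r of 0.85. Over all probe sets 9.29% were called positive and 6.98% negative. Mybl2 (r = 0.454, rho = 0.428) and Tyms (r = 0.267, rho = 0.165) were not called. Racgap1, a cytokinesis regulator, had r = 0.96 and rho = 0.95, and Cdca8, a chromosomal passenger, had 0.94 and 0.96.

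**Figure D3:**
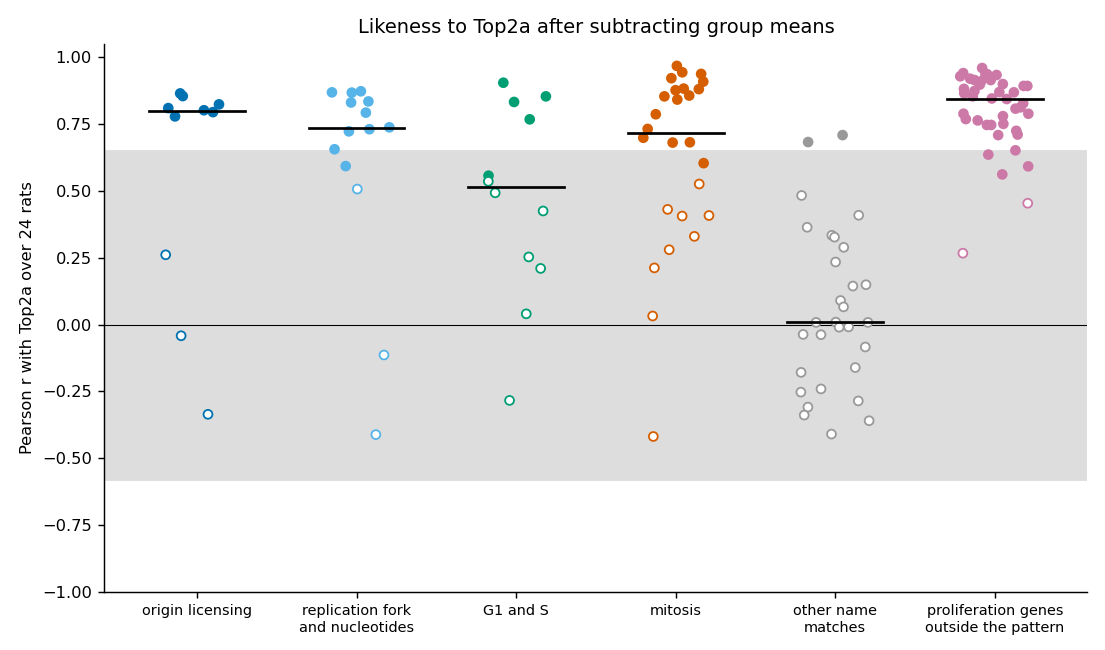
Pearson's r with Top2a over 24 rats, after subtraction of group means, for each gene by role and for 42 proliferation genes outside the name rule. Filled points had an adjusted p under 0.05 over all probe sets, horizontal lines are medians and the grey band holds the middle 90% of all probe sets. Licensing genes have a median of 0.80 and the other name matches 0.01.

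Markers of other cell types moved along with this pattern. Over the 24 rats the mean of 8 adipocyte markers had r = -0.77 and rho = -0.78 with Top2a (permutation p = 3e-05 and 1e-05, adjusted over 9 marker lists 0.00027 and 9e-05). Without the 2 rats farthest from the median it was -0.82. That of 6 endothelial markers had r = -0.72 and rho = -0.70 (adjusted p = 0.00027 and 0.00139), and that of 7 milk protein genes had r = 0.66 and rho = 0.64 (adjusted p = 0.0024 and 0.00426), with -0.75 and 0.70 without those rats. The luminal list had r = 0.32 and rho = 0.39 (adjusted p = 0.178 and 0.101) and the list of lymphocytes and lymph node r = 0.40 and rho = 0.36 (0.096 and 0.115). Within treated rats alone r was 0.73 for the luminal list and 0.58 for the lymphocyte list. Within control rats alone it was -0.07 and 0.17, and the difference between the groups was not tested. The basal list was called by rho (r = 0.40, rho = 0.49, adjusted p = 0.096 and 0.0409), and fibroblast, macrophage and skin lists by neither. In whole glands fewer cells of a type and less RNA per cell cannot be told apart, and the part of cell composition in the shared variation was not tested.

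Promoters of the genes that varied together are shown to set the letters of mitotic promoters beside those of licensing promoters. RefSeq sequences of the assembly GRCr8, from 250 bases before to 50 bases from the start of the gene, were found for 75 of the 93 genes. Both strands were searched for CCAAT, the box bound by NF-Y, for TTTGAA, the cell cycle homology region known from mitotic genes, and for 4 forms of the E2F site, namely TTGGCGC as well as its relatives TTCCCGC in addition to TTCGCGC and lastly the form TTGCCGC. Matches are in capitals in these 5 promoters, written 5′ to 3′ along the gene, and where matches overlap or touch they form a single run.
Top2a (chr10:84473044-84473343, minus strand): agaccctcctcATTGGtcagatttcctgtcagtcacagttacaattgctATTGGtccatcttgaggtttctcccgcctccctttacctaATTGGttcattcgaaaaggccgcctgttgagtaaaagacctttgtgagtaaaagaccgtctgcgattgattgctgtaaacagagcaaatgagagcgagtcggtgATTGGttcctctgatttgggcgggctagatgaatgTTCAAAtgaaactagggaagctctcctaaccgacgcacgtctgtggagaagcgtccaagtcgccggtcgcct
Cdk1 (chr20:19265043-19265342, plus strand): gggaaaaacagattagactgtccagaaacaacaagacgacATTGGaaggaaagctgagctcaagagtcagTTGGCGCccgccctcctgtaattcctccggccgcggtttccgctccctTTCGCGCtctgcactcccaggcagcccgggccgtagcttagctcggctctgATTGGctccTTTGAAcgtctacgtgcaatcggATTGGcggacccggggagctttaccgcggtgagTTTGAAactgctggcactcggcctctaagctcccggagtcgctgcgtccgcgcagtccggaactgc
Cks2 (chr17:13727470-13727769, minus strand): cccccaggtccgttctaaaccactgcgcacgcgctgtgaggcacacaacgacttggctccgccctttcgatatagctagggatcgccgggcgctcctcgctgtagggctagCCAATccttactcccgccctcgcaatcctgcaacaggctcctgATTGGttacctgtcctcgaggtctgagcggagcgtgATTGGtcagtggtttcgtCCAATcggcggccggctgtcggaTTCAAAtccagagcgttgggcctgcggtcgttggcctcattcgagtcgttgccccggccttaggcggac
Mcm6 (chr13:42404303-42404602, minus strand): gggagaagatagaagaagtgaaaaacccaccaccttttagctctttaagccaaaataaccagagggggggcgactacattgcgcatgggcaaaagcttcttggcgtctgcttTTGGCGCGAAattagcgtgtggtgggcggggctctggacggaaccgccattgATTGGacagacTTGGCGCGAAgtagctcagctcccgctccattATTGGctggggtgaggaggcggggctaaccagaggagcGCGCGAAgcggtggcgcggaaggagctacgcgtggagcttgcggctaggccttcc
Mcm7 (chr12:22163129-22163428, minus strand): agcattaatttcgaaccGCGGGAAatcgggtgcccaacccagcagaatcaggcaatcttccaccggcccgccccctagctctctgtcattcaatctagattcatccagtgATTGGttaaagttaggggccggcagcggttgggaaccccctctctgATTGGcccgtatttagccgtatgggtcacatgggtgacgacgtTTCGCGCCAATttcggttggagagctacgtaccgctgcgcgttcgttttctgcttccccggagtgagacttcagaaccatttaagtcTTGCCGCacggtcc

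The promoters of Top2a, Cdk1 and Cks2 each held TTTGAA on either strand shortly before the start of the gene, centred at positions -19.5, -13.5 and -16.5 relative to it, and Cdk1 had a second at -69.5. Those of Mcm6 and Mcm7 held none, and had 5 and 4 E2F matches, some of which overlap, while Cdk1 had 2 E2F matches as well, and Top2a and Cks2 had none. TTTGAA was present in 12 of 24 mitotic promoters, in 1 of 8 licensing promoters and in 0 of 14 fork promoters, against 18.1% of all 27457 promoters and 11.7% of those of genes on the array. E2F letters were present in 6 of 8 licensing promoters (75.0%) and 10 of 14 fork promoters (71.4%), in 1 of 5 G1 and S promoters, in 4 of 24 mitotic promoters (16.7%) and in 7 of 24 promoters of the other name matches (29.2%), against 10.0% of all promoters and 16.3% of those of genes on the array. CCAAT was present in 62.5% of licensing, 64.3% of fork and 66.7% of mitotic promoters, against 37.7% of all. A match is a description of these letters and not evidence of binding.

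The treatment comparison asked whether glands of treated rats expressed these genes at other levels than glands of control rats. Of the 93 genes 6 were higher and 6 were lower in treated rats (limma, adjusted p under 0.05 over 15866 probe sets), which is 12.9% of them, against 18.1% of all probe sets (8.46% higher and 9.59% lower). At an unadjusted p under 0.05 there were 18 of the 93 genes, against 29.1% of all probe sets. The genes that varied most between rats were not among them: none of 14 fork genes and 1 of 27 mitotic genes was called. Of the rest, 2 of 10 licensing genes, 2 of 12 G1 and S genes and 7 of 30 other name matches were called. The median log2 difference of the 93 genes was -0.025, against -0.0025 for all probe sets.

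The largest rise was that of Cdc123, which despite its name is known as an assembly factor of translation initiation factor eIF2. Cdc123 had 8.20, 8.36 and 8.55 log2 at the lowest, median and highest treated rat, against 7.78, 8.02 and 8.29 log2 in control rats. It was higher by 0.35 ± 0.05 log2 (SE), or 1.28-fold (limma, adjusted p = 4.72e-05), and 9 of 12 treated rats lay above the highest control rat. E2f6, an E2F family member that acts as a repressor, had 8.94, 9.12 and 9.26 log2 in treated rats, against 8.72, 8.83 and 9.04 log2 in control rats. It was higher by 0.27 ± 0.04 log2 (limma, adjusted p = 5.94e-05), again with 9 of 12 treated rats above every control rat.

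Cyclin D3, Ccnd3, had 8.80, 8.99 and 9.21 log2 in treated rats, against 8.70, 8.87 and 8.95 log2 in control rats, and was higher by 0.19 ± 0.04 log2 (limma, adjusted p = 0.0023). Of the 12 treated rats 10 lay above the highest control rat, and the lowest treated rat lay below the control median. The Cdc42 effector Cdc42ep1 (0.22 ± 0.04 log2, limma adjusted p = 0.000613) and the ubiquitin-conjugating enzyme Cdc34 (0.21 ± 0.04 log2, adjusted p = 0.00069) rose as well, and each was above the control mean in 12 of 12 treated rats. Both other probe sets of Cdc34 were also called higher, by 0.13 and 0.09 log2. Orc5 stood at the threshold, with 0.09 ± 0.03 log2 and an adjusted p of 0.04999 by limma. It stayed called in 8 of 24 fits that left out 1 rat, and its other probe set gave 0.02 log2 (adjusted p = 0.845).

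Cenpv, centromere protein V, showed the largest fall. It had 6.58, 6.79 and 7.44 log2 at the lowest, median and highest treated rat, against 6.88, 7.07 and 7.35 log2 in control rats, and was lower by 0.30 ± 0.07 log2 (limma difference -0.30, adjusted p = 0.00447). In 10 of 12 treated rats it lay below the lowest control rat, while treated rat 14, at 7.44, was above the highest. Its other probe set gave -0.06 log2 and was not called (adjusted p = 0.369). Repeat arrays of Cenpv differed as much as rats of a group, with SDs of 0.191 and 0.186 log2. Its mean of 6.95 log2 lay below the median of all probe set means, 7.44. Cdk19, a kinase of the Mediator complex, had 8.01, 8.41 and 8.50 log2 in treated rats, against 8.20, 8.59 and 8.83 log2 in control rats, a difference of -0.21 ± 0.07 log2 (limma, adjusted p = 0.0233). All 12 treated rats were below the control mean, although only 2 were below the lowest control rat.

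The other genes that fell were Orc2 (-0.15 ± 0.05 log2, limma adjusted p = 0.0243), Cdc42se1 (-0.16 ± 0.04, 0.00721), the splicing factor Cdc5l (-0.13 ± 0.04, 0.0172) and Cdk10 (-0.11 ± 0.03, 0.018). Each was below the control mean in 10 or 11 of 12 treated rats. A second probe set of Cdc42se1 gave -0.10 log2 and was not called (adjusted p = 0.26). The treated and control ranges overlapped for every one of the 12 called genes.

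Markers of several cell types differed between the same groups. Lower in treated rats were 7 of 14 luminal markers (list mean 8.54 to 8.83 log2 in treated rats and 8.76 to 9.06 in control rats), 5 of 9 basal markers (9.33 to 9.99 and 9.57 to 10.2) and 4 of 7 milk genes (10.0 to 11.5 and 10.5 to 12.1), while 6 of 8 adipocyte markers were higher (9.99 to 10.9 in treated rats and 9.65 to 10.6 in control rats). In the opposite direction to their lists, the basal marker Oxtr was higher and the adipocyte marker Cfd was lower. Over all probe sets 8.46% were called higher and 9.59% lower. Other lists held fewer calls: 1 of 6 endothelial and 1 of 8 fibroblast markers were lower. Of 6 macrophage markers 2 were higher and 1 lower, and of 12 lymphocyte and lymph node markers 0 were called. The mean of 4 skin markers ran from 5.84 to 8.97 log2 in treated rats and from 5.85 to 7.04 in control rats, with none called, and 11 of the 93 genes were called without treated rats 3 and 10, which had high skin markers. The part of the other markers in the differences of Cdc123, E2f6, Cenpv and the other called genes was not tested.

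**Figure D4:**
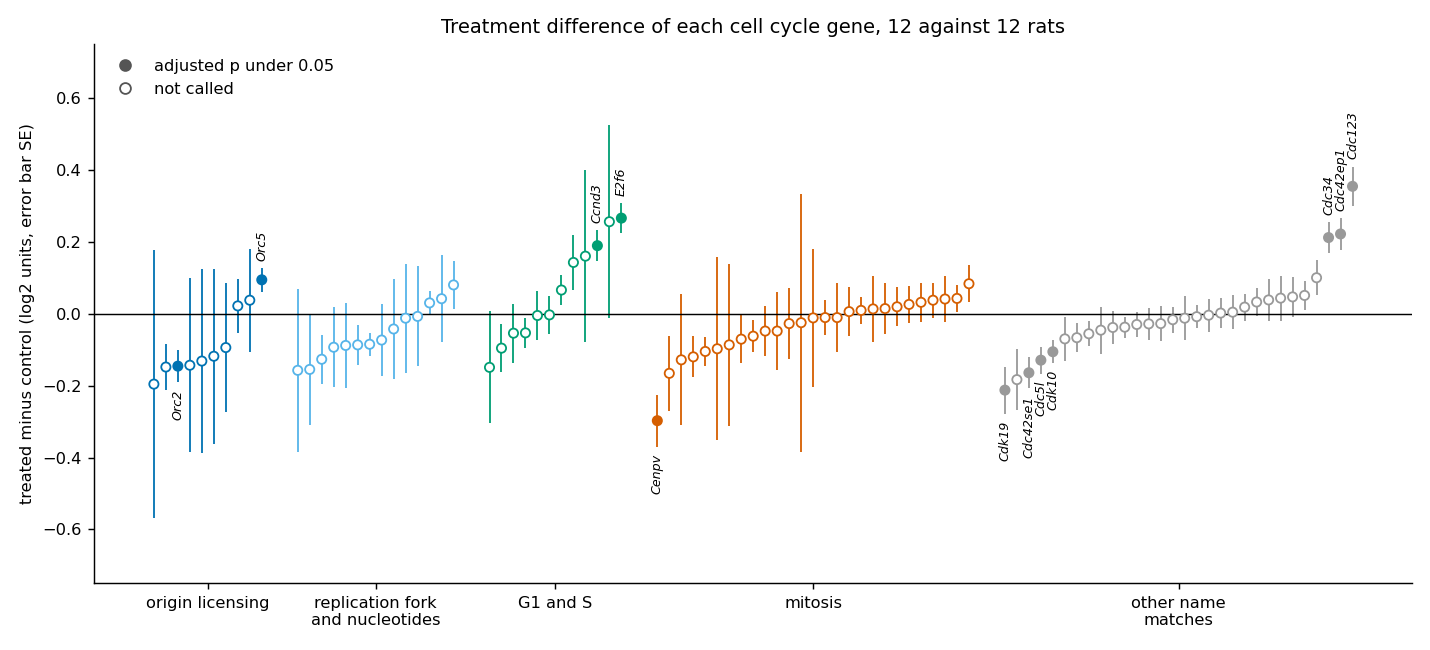
Difference between treated and control rats (12 each) for the 93 genes, in log2 units with the standard error, grouped by role and sorted within it. Filled points had an adjusted p under 0.05; Cdc123 is highest at 0.35 and Cenpv lowest at -0.30, and the long error bars among licensing, fork and mitotic genes mark those that vary between rats.

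For the variable proliferation genes the treatment difference was small beside its error. Top2a differed by -0.13 log2 (95% confidence interval -0.50 to 0.25, limma adjusted p = 0.717) and Mki67 by -0.09 (-0.55 to 0.38, adjusted p = 0.863). Cdk1 differed by -0.10 (-0.62 to 0.43, adjusted p = 0.864), Pcna by -0.16 (-0.62 to 0.31, adjusted p = 0.721) and Mcm6 by -0.20 (-0.96 to 0.57, adjusted p = 0.803). Among the variable D cyclins Ccnd1 differed by 0.16 (-0.33 to 0.65, adjusted p = 0.737) and Ccnd2 by 0.26 (-0.29 to 0.81, adjusted p = 0.596). Each interval holds values on both sides of 0, so that neither a change nor equal levels are shown. In sign alone 7 of 10 licensing and 11 of 14 fork genes were lower in treated rats, but these genes vary together and are not independent observations.

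Of the 42 proliferation genes outside the name rule none was called for treatment. Thymidylate synthase, Tyms, came nearest (6.07 ± 0.17 log2 in treated rats and 5.90 ± 0.16 in control rats, SD, n = 12 each), with a limma adjusted p of 0.0709. Of 20 measured genes that restrain the cycle, 3 were higher and 2 lower, against 8.46% of all probe sets higher and 9.59% lower, so that no difference of the list from other genes is shown. Gadd45a, a growth arrest and DNA damage gene, was 8.46 ± 0.40 log2 in treated rats and 7.64 ± 0.27 in control rats (SD, n = 12 each), a difference of 0.82 ± 0.13 (SE, limma adjusted p = 5.93e-05). Tob1, an antiproliferative gene, was higher by 0.70 ± 0.17 log2 (adjusted p = 0.00451), and Ccng1, a p53 target, by 0.33 ± 0.07 (adjusted p = 0.00104). The retinoblastoma gene Rb1, whose product holds E2F in check, differed by -0.43 ± 0.12 log2 (limma adjusted p = 0.0141). The second lower gene, named after its values were seen, was Cdkn1b, which encodes the Cdk inhibitor p27 (-0.32 ± 0.10, adjusted p = 0.034). Among 8 other cyclins Ccnc, the partner of Cdk8 and Cdk19, was higher by 0.21 ± 0.05 log2 (adjusted p = 0.0056) and Ccni differed by -0.16 ± 0.04 (adjusted p = 0.00398).

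In pools of 2 rats 3 of the 93 genes were called, 3.23% of them, against 8.82% of all probe sets. Cdc123 had 8.25, 8.46 and 8.59 log2 at the lowest, median and highest treated pool, against 7.96, 8.07 and 8.16 log2 in control pools. The groups of pools did not overlap for Cdc123, and the difference was 0.38 ± 0.06 log2 (limma adjusted p = 0.00106). Ccnd3 was higher by 0.19 ± 0.05 (adjusted p = 0.0372), and Cenpv differed by -0.31 ± 0.09 (adjusted p = 0.0443). Cdk19 (-0.14 ± 0.07, limma adjusted p = 0.294) and E2f6 (0.25 ± 0.08, adjusted p = 0.0605) were not called in pools of 2. Leaving out each pool in turn gave 1 to 5 called genes, the fewest without treated pool 1 or control pool 1, 2, 5 or 6.

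In pools of 3 rats 3 genes were called, again 3.23%, against 6.24% of all probe sets. Cdk19 had 8.24, 8.34, 8.35 and 8.20 log2 in the 4 treated pools, against 8.58, 8.64, 8.65 and 8.65 log2 in the 4 control pools, a difference of -0.35 ± 0.06 (limma adjusted p = 0.00649). Every treated pool thus lay below every control pool. Cdc42se1 had 9.41, 9.40, 9.64 and 9.60 log2 in treated pools, against 9.87, 9.81, 9.77 and 9.78 log2 in control pools (-0.30 ± 0.07, adjusted p = 0.0336). Cdc123 had 8.46, 8.58, 8.48 and 8.57 log2 in treated pools, against 7.99, 8.17, 8.15 and 8.38 log2 in control pools (0.35 ± 0.08, adjusted p = 0.0274), again without overlap. E2f6 (0.115 ± 0.07, limma adjusted p = 0.46), Ccnd3 (0.13 ± 0.06, 0.286) and Cenpv (-0.34 ± 0.12, 0.127) were not called in pools of 3. Leaving out each pool in turn gave 1 to 2 called genes, with 1 without treated pool 2 or control pool 1, 2 or 3.

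The 4 arrays of each pool of 12 measured a single mixture of the 12 rats of a group. They show no spread between rats, only that between hybridisations. Mcm6 had 7.57, 7.50, 7.77 and 7.66 log2 in the treated pool of 12, against 7.54, 7.55, 7.60 and 7.24 log2 in the control pool. The mean log2 value of its single rats was lower, 6.989 in treated and 7.185 in control rats. Mixing averages signal and not log2 values, so a pool need not lie at that mean. Mki67 had 6.70, 6.56, 6.66 and 6.67 log2 in the treated pool, against 6.65, 6.60, 6.80 and 6.73 log2 in the control pool. For both genes the arrays of the treated and control pools overlapped, while Cdk19 did not overlap, with 8.35, 8.34, 8.41 and 8.32 log2 in the treated pool against 8.69, 8.75, 8.60 and 8.67 log2 in the control pool. Since each pool of 12 is a single mixture, these differences have no test. The share of all probe sets without overlap between these pools is not given here.

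The labels also give the stage of the ovarian cycle, so rats outside diestrus were compared with rats in diestrus with treatment in the model. None of the 93 genes was called for stage, and 0% of all probe sets were. At an unadjusted p under 0.05 there were 2 of the 93 genes, and 581 of 15866 probe sets (3.66%). The 8 genes with the smallest p were Cdc42ep3, Aurka, Ccnb1, Ccnb2, Cdk8, Orc4, Cdc23 and Top2a, each lower in sign outside diestrus and each with a limma adjusted p of 0.999.

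Of these, Aurka, a kinase of the spindle poles, had 5.98, 6.33 and 6.56 log2 at the lowest, median and highest of 9 rats outside diestrus, against 6.12, 6.51 and 7.12 log2 in 15 rats in diestrus (difference -0.21 ± 0.10). Ccnb2 had 5.79, 6.10 and 6.87 log2 outside diestrus, against 5.83, 6.39 and 7.66 log2 in diestrus (-0.35 ± 0.20). Top2a had 7.12, 7.36 and 8.22 log2 outside diestrus, against 7.09, 7.93 and 8.59 log2 in diestrus (-0.30 ± 0.19). For each of these 3 genes the highest rat was in diestrus and the ranges of the stages overlapped. The differences were -0.20 ± 0.08 for Cdc42ep3, -0.20 ± 0.10 for Ccnb1, -0.08 ± 0.05 for Cdk8, -0.11 ± 0.07 for Orc4 and -0.09 ± 0.06 for Cdc23.

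The means of licensing and mitotic genes are set side by side by stage as a description without a test. The mean of Mcm2 to Mcm7 had nearly the same median in both stages, 7.75 log2 outside diestrus (7.05 to 8.55) and 7.80 log2 in diestrus (6.92 to 8.88). The mean of 10 mitotic genes (Mki67, Top2a, Cdk1, Ccnb1, Ccnb2, Cdc20, Plk1, Aurka, Aurkb and Bub1b) had a median of 6.94 log2 outside diestrus (6.82 to 7.50) and of 7.28 log2 in diestrus (6.72 to 7.99). The Mcm mean minus the mitotic mean averaged 0.78 ± 0.41 log2 in rats outside diestrus (0.22 to 1.45, n = 9) and 0.57 ± 0.34 log2 in rats in diestrus (0.10 to 1.21, n = 15; SD). The gap between the stages was thus smaller than the spread between rats, and the ranges overlapped almost fully. The highest values were 1.45 in control rat 8, outside diestrus, and 1.21 in control rat 2, in diestrus, and treated rat 11, outside diestrus, had 0.22. The sets were chosen with the rats' values known, and 3 control rats were outside diestrus. In sign 20 of the 27 mitotic genes were negative, against 6586 of all 15866 probe sets. These genes are not independent observations, since 17 of the 26 other than Top2a were called positive with it.

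**Figure D5:**
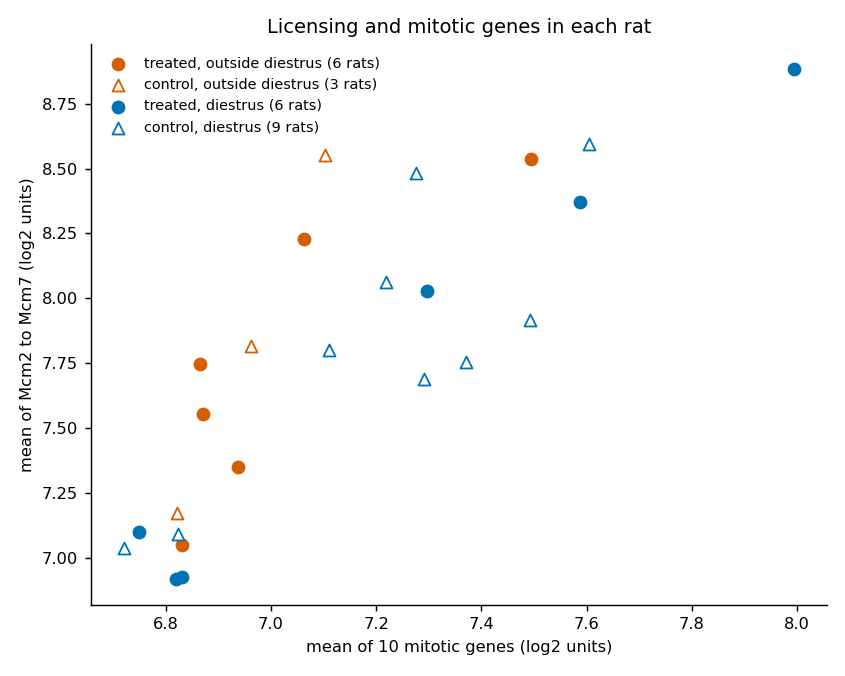
Mean of Mcm2 to Mcm7 against the mean of 10 mitotic genes in each of 24 rats, in log2 units. Filled circles are treated and open triangles control rats, orange marks rats outside diestrus and blue rats in diestrus. Rats of both stages overlap: control rat 8, outside diestrus, lies at 8.55 log2 for the Mcm genes and 7.10 for the mitotic genes, and control rat 2, in diestrus, at 8.48 and 7.28 log2.

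Whether the treatment difference depended on stage was tested by the interaction of both. None of the 93 genes was called by limma, and 0% of all probe sets were. At an unadjusted p under 0.05 there were 0 of the 93 genes and 322 of 15866 probe sets (2.03%). The 4 genes with the smallest p were Cenpx (interaction 0.21 ± 0.12 log2), Cdk16 (0.13 ± 0.08), Cdc42se1 (0.14 ± 0.09) and E2f5 (0.18 ± 0.14), each with an adjusted p of 0.9997. Treatment tested within each stage gave 0 of the 93 genes outside diestrus, against 1.48% of all probe sets, and 6 of them (6.45%) in diestrus, against 8.73% of all probe sets.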

How the data were processed

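The deposited tables hold 1 value per probe set and array. Their log2 unit was inferred from the range of the deposited values, 4.12 to 14.1, and not given in the sources used here is how the authors corrected and normalized them. Total RNA of each gland was turned into labelled, fragmented cRNA before any pooling, per the labels. Values were used as deposited, after removal of 57 control probe sets from 15923 and with no filter on dim probe sets. Symbols came from the platform annotation, updated through Entrez IDs to RefSeq GRCr8 (12748 probe sets matched, 12783 with 1 symbol, 312 with several and 2771 unlisted).

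Treatment, stage and their interaction were fitted with limma 3.58.1 (R 4.3.3; lmFit, eBayes) over all 15866 probe sets, p-values were adjusted after Benjamini and Hochberg, and 0.05 was the threshold. Individual rats entered with 1 array each, and repeat arrays and pools of 12 entered no test. Likeness to Top2a was Pearson's r and Spearman's rho, with rats permuted within groups. The rest used Python 3.11.15, numpy 2.4.6, pandas 2.3.3 and matplotlib 3.10.9. On 15866 simulated probe sets, drawn independently, the test of treatment in single rats found 74% of the probe sets changed by 0.25 log2. It found 94% of those changed by 0.5 log2, and 5.08% of its calls were false. In pools of 2 it found 35% and 89%, and in pools of 3 12% and 72%. The changed probe sets were chosen at random, so these shares do not carry over to the variable proliferation genes. Their treatment differences had larger SEs, such as 0.18 log2 for Top2a and 0.37 for Mcm6 in single rats.

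Named genes were Mki67, Top2a, Pcna, Plk1, Cdk1, cyclins A2, B1, D1 to D3 and E1, Mcm2 to Mcm7, all genes called for treatment, the 8 smallest p for stage, the 4 for the interaction, the 6 largest SDs between rats, the 8 genes most like Top2a and up to 4 genes of each other list. Of these, cyclin A2 was not measured through a single symbol. Others named were chosen after their values were seen. The genes, roles and lists were chosen with earlier results of these data known. Alternatives covered array scaling, dim probe sets, limma's prior and array weights, the threshold, stage, the technical score, the replicate block, repeat arrays, probe set choice and leaving out each rat or pool. Later arrays of the pools of 12 carry the source label of an individual gland, and their title and description were followed.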

Additional observations from a re-analysis of the deposited data

Results flagged for a closer look

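In 160 groups of pools (40 named genes, 4 groups each) a sample was set against the nearest of the others by Dixon's 95% limit, which chance passes in about 1 of 20 groups, or 8 here. It was passed 4 times. Cdc5l was 9.14 log2 in control pool of 3 replicate 4, against 8.87 log2 in the next pool. Cdk19 was 8.25 log2 in control pool of 2 replicate 3, against 8.52 in the next, and 8.58 log2 in control pool of 3 replicate 1, against 8.64 in the next. Cenpx was 9.57 log2 in treated pool of 2 replicate 2, against 9.29 in the next. No explanation of these values was tested.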

How the results depend on the processing

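The count of 12 genes called for treatment in individual rats was 7 at an adjusted p under 0.01, 6 in rats in diestrus only and 0 in rats outside diestrus only, where fewer rats entered. It lay between 9 and 14 under the other settings and between 11 and 13 when each rat was left out. With the rat number as a replicate block, 7 genes were called in the 20 rats that share a number. Correlations of same-numbered rats ran from -0.389 to 0.358, which does not settle whether the numbers pair the rats. Under the replicate block the differences of Cdk1 (0.10), Mcm6 (0.21), Mki67 (0.11), Pcna (0.076) and Top2a (0.032 log2) changed sign, none of them called. Outside diestrus Ccnd2 (-0.24), Cdk1 (0.055) and Top2a (0.0667) changed sign, as did Mki67 in diestrus (0.0683) and the dimmer probe set of Top2a (0.0108). Mki67 ran from -0.22 to 0.0039 when each rat was left out, the highest without control rat 15. Pools of 2 gave 1 to 5 genes when each pool was left out, with 1 gene without treated pool 1 or control pool 1, 2, 5 or 6 and 5 genes without control pool 3. Pools of 3 gave 1 to 2, with 1 gene without treated pool 2 or control pool 1, 2 or 3. Without the pools that hold rats 2 and 3, chosen after seeing the data, pools of 3 gave 1 gene and Cdc5l changed sign (-0.0567, against 0.04 in all pools of 3). In pools of 3, leaving out each pool moved Cdc5l between -0.025 and 0.11 and Orc2 between -0.13 and 0.03, and median centring put Orc2 at 0.005 log2. Stage and interaction gave 0 genes under each setting run, and the likeness to Top2a gave 43 genes by rho and 42 after median centring. Estrus and proestrus were not kept apart, since 3 rats carry both labels. The cause of these changes was not tested.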
